A study of Homo sapiens with 4 samples.

Results

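The glutathione S-transferases of Hep-G2 cells were followed through 10 genes named by symbol, GSTA1, GSTA2, GSTA4, GSTM3, GSTM4, GSTP1, GSTO1, GSTK1, MGST1 and MGST2, out of 62893 genes in the deposited tables. The rule for the list uses gene names and no measured value, but the list was drawn up with earlier results of these data known. All 10 genes were found, 9 of them had reads and passed the filter on low counts, and GSTP1 had 0 reads in every table. The RNA was total RNA of Hep-G2, a human hepatoma-derived cell line, sequenced after an shRNA against FTO, a demethylase of N6-methyladenosine in RNA. The shFTO cells carried the shRNA TRCN0000246247 and the scramble cells carried the control shRNA SHC002, and both were at passage 21. Each group has 2 count tables, titled as replicates 1 and 2 and called run 1 and run 2 here. Only 1 shRNA against FTO was used, and the labels do not say whether the cells were a clone or whether the tables came from separate cultures.

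Glutathione S-transferases join the thiol of glutathione to electrophilic drugs, carcinogens and products of lipid oxidation, which are then pumped out of the cell and broken down to mercapturic acids. The soluble enzymes fall into classes named by Greek letters, of which alpha is the abundant class of hepatocytes, pi (GSTP1) is typical of bile duct cells and of many tumours, omega (GSTO1) reduces rather than conjugates, and kappa (GSTK1) sits in mitochondria and peroxisomes. The microsomal enzymes MGST1 and MGST2 are unrelated membrane proteins that use the same glutathione, and MGST2 can also make leukotriene C4. Many of the soluble genes have antioxidant response elements, bound by NRF2 with small MAF proteins.

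GSTA1 and GSTA2 gave the 2 largest differences in the family, and their sequences are shown because they bear on how far reads can be told apart and on what lies at each start. The windows run from 250 bases before to 50 bases after the annotated start, in RefSeq on GRCh38.p14, 5′ to 3′ on the gene's strand. They are chr6:52803767-52804066 on the minus strand for GSTA1 and chr6:52763426-52763725 on the minus strand for GSTA2. Capitals mark the bases at which the 2 windows differ, 12 of 300 positions (96.0% identity), 7 before the start and 5 after it.
GSTA1 promoter: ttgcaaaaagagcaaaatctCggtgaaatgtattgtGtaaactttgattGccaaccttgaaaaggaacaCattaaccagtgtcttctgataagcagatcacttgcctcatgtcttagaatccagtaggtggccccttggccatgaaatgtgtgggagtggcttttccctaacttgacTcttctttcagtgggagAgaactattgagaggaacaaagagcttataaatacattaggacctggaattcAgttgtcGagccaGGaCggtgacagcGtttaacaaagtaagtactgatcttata
GSTA2 promoter: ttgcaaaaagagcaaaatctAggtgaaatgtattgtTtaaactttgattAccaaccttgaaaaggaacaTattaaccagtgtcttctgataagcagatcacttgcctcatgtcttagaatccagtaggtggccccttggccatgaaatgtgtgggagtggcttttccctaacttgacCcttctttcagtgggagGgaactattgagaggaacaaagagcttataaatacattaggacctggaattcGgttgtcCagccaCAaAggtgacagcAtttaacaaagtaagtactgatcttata

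The coding sequences of GSTA1 and GSTA2 are both 666 bases long and differ at 22 positions (96.7% identity), with an identical run of 209 bases. The 60 bases from coding position 316 to 375, counted from 1 at the start codon in GENCODE v29, hold 7 of these differences, in capitals. Reads that cross such bases can be assigned to 1 gene of the pair.
GSTA1 coding bases: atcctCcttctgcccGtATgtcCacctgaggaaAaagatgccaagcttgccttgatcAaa
GSTA2 coding bases: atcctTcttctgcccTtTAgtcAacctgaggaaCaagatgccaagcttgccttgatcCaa

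The start of GSTP1 is shown because this was the listed gene without a read. Its window is chr11:67583562-67583861 on the plus strand (RefSeq, GRCh38.p14), and capitals mark a match to the core of the antioxidant response element, TGACNNNGC, which overlaps the AP-1 motif TGACTCA.
GSTP1 promoter: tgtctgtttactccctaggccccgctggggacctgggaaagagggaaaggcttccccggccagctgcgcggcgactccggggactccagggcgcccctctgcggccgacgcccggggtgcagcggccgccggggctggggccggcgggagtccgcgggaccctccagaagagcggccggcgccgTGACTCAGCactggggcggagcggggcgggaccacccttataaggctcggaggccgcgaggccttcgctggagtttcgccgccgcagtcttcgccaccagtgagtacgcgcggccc

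FTO itself had 116 and 128 reads in the shFTO runs, against 594 and 550 reads in the scramble runs. That is 5.42 and 5.84 CPM (counts scaled to library size, with TMM factors) against 31.4 and 28.5 CPM, or 5.32-fold lower with the knockdown shRNA (95% counting interval 4.63 to 6.13). Depth was 20220271 and 20706611 reads in genes for the shFTO runs and 20047409 and 20474554 for the scramble runs, with reads in 21301 and 21463 genes against 20449 and 20559 genes. The 2 runs of a group differed by no more than sampling noise (chi-square per degree of freedom 1.013 over 13674 genes, p = 0.142, for shFTO and 1.019 over 13359 genes, p = 0.0648, for scramble). They were therefore pooled and counted as 1 sample, so the comparison sets 1 sample against 1 sample, has no replicate check, and every interval covers counting error only. All 8 hepatocyte markers had reads in both groups. At least 2-fold lower levels in shFTO were found for 5 of the 8, beside 6.19% of all 13767 genes tested. The summed level of the 8 was 15380 CPM in shFTO, against 35420 CPM in scramble. Of the 6 markers of each other cell type, at least 1 was at 0 in each group, and PTPRC, CD3E, DCN, LUM, COL3A1, PECAM1, KDR and AQP1 were at 0 in both. The summed levels in shFTO against scramble were 6.76 against 23.4 CPM for fibroblast and 2.19 against 1.20 CPM for endothelial markers. They were 234.6 against 3010 CPM for leukocyte markers (nearly all LYZ, lysozyme), and 932.5 against 760.9 CPM for cholangiocyte markers. Members of the fibroblast and cholangiocyte sums went in both directions. PDGFRB was lower in shFTO (3.62 against 23.3 CPM) and COL1A1 higher (3.12 against 0.131 CPM). KRT19 (397.5 against 201.9 CPM), EPCAM (327.4 against 254.1 CPM) and KRT7 (1.82 against 0 CPM) were higher, and SOX9 was lower (205.7 against 304.9 CPM). In bulk RNA fewer cells of a type cannot be told apart from less RNA per cell.

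The alpha class transcripts were higher in shFTO cells, GSTA2 most, then GSTA1, then GSTA4. GSTA1, the main alpha transferase of hepatocytes, had 2303 and 2413 reads in the shFTO runs, against 548 and 520 in the scramble runs. This corresponds to 107.6 and 110.0 CPM in shFTO, against 29.01 and 26.9 CPM in scramble. The pooled level was 3.89-fold higher (3.64 to 4.16). GSTA2, its near copy with an overlapping range of substrates, had 396 and 371 reads in shFTO, against 31 and 27 in scramble, or 18.5 and 16.9 CPM against 1.64 and 1.40 CPM. This was the largest ratio of the family, 11.7-fold higher (8.92 to 15.5). GSTA4, which conjugates 4-hydroxynonenal and other aldehydes from lipid oxidation, had 864 and 850 reads in shFTO, against 552 and 503 in scramble, or 40.4 and 38.8 CPM against 29.2 and 26.1 CPM. It was 1.43-fold higher (1.33 to 1.55). The hepatocyte markers lay in the other direction, with 8 of 8 at least 20% lower in shFTO, beside 24.0% of all genes tested. The median log2 ratio of these markers was -1.26, and the part of that shift in the alpha class values was not tested.

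Set against all 13767 genes tested, the log2 ratio of GSTA2 (3.54) ranked 63 from the top, that of GSTA1 (1.96) ranked 225 and that of GSTA4 (0.52) ranked 1838. At least 2-fold higher levels were found for 2 of the 9 tested transferases, while 5.18% of all genes tested lay that high. At least 2-fold lower levels were found for 1 of the 9, MGST2, against 6.19% of all genes tested.

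**Figure D1:**
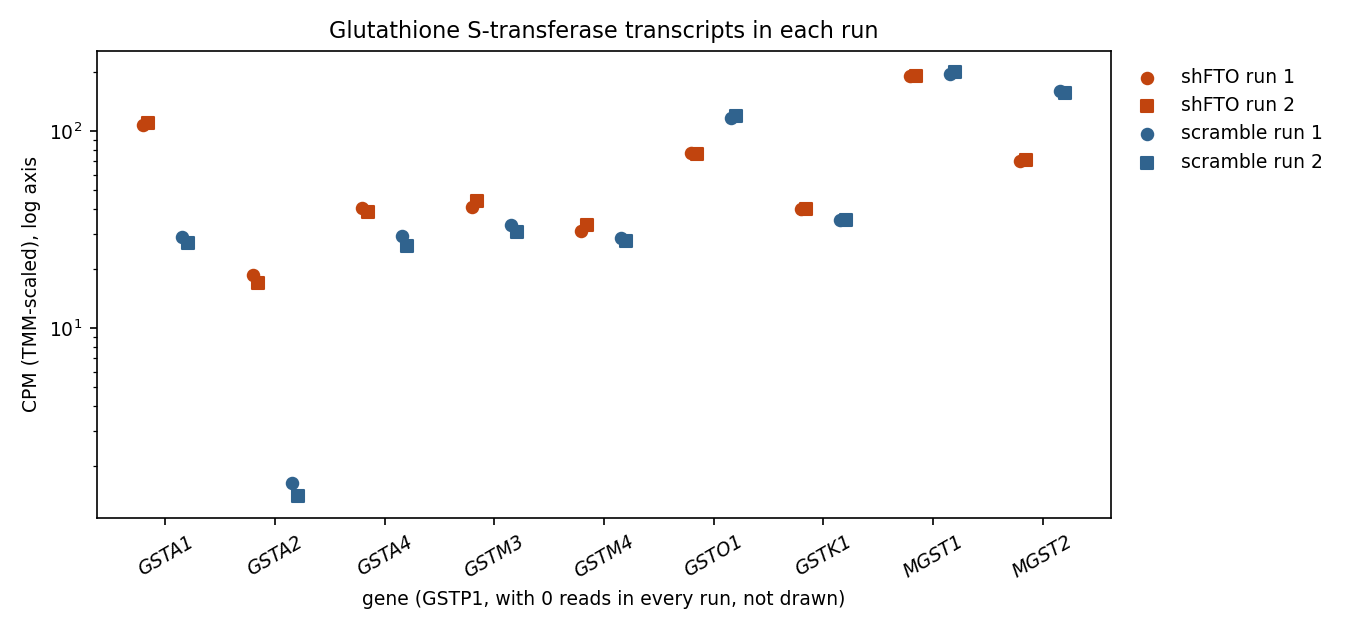
TMM-scaled CPM (log axis) of the 9 listed transferases with reads, in shFTO runs 1 and 2 and in scramble runs 1 and 2. GSTA1 and GSTA2 stood at 107.6 and 110.0 CPM and at 18.5 and 16.9 CPM in shFTO, against 29.01 and 26.9 CPM and 1.64 and 1.40 CPM in scramble, whereas MGST1 was near 190.5 CPM in shFTO and 196.3 CPM in scramble.

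GSTA1 and GSTA2 share sequence, so their reads may have been split or lost in part. In GENCODE v29 transcripts, 26.2% of the 50-base words of GSTA1 also occur in another gene, 21.7% in GSTA2, and 18.4% of those of GSTA2 occur in GSTA1. With 100-base words the shares were 9.85% and 9.06%. Read length is not given in the sources used here. Taken as a sum, which a split between the pair cannot move although reads lost to both can, GSTA1 and GSTA2 had 5483 reads in shFTO and 1126 in scramble, 4.29-fold higher (4.03 to 4.58). The balance within the pair also differed. GSTA2 made up 14.7% and 13.3% of the pair's reads in the shFTO runs, against 5.35% and 4.94% in the scramble runs. The exact 95% binomial intervals of the pooled shares, 13.1% to 14.9% in shFTO and 3.93% to 6.61% in scramble, did not meet. Reads of other alpha loci were few: GSTA3 had 1 and 1 read in shFTO and 0 and 0 in scramble, GSTA5 had 0 in every run, and no alpha pseudogene exceeded 6 reads in a run.

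The mu class transcripts differed less. GSTM3, a mu enzyme known mainly from testis and brain, had 881 and 972 reads in shFTO, against 629 and 595 in scramble, or 41.2 and 44.3 CPM against 33.3 and 30.8 CPM. It was 1.335-fold higher (1.24 to 1.44). GSTM4, a mu enzyme of low activity with the standard substrates, had 665 and 727 reads in shFTO, against 538 and 533 in scramble, or 31.1 and 33.1 CPM against 28.5 and 27.6 CPM. It was 1.15-fold higher (1.06 to 1.24), a small distance between the groups. GSTM2, a more active mu enzyme outside the list of 10, had 98 and 99 reads in shFTO, against 77 and 70 in scramble. Its interval, 0.949 to 1.47 around a ratio of 1.18, included no difference. GSTM4 shares 16.9% of its 50-base words with other genes, 7.44% with GSTM2, and 6.53% of its exons overlap GSTM2 on the same strand, so the 2 values are not independent. GSTM1, which is absent from the genome of many people, had 1 and 1 read in shFTO and 2 and 0 in scramble. GSTM5 had 1 and 0 reads in shFTO and 1 and 1 in scramble.

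At least 25% higher levels were found for 4 of the 9 tested transferases, GSTA2, GSTA1, GSTA4 and GSTM3, while 22.8% of all genes tested lay that high. At least 20% lower levels were found for 2, GSTO1 and MGST2, against 24.0% of all genes tested. The median log2 ratio of the 9 was 0.20, beside 0.01 over all genes tested. edgeR's quasi-likelihood test (Benjamini-Hochberg adjusted p under 0.05) called 6 of the 9 higher and 2 lower, every one but MGST1. It also called 33.2% of all genes tested higher and 33.4% lower. Because the runs of a group vary no more than sampling, these calls compare 2 libraries and not 2 conditions.

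The omega transferase GSTO1, which reduces dehydroascorbate and methylated arsenic and removes glutathione from proteins, was lower in shFTO. It had 1658 and 1679 reads in shFTO, against 2200 and 2288 in scramble, or 77.5 and 76.5 CPM against 116.5 and 118.5 CPM. The pooled level was 1.53-fold lower (1.46 to 1.60). GSTO2, its neighbour on chromosome 10 and also a dehydroascorbate reductase, had only 8 and 10 reads in shFTO, against 25 and 16 in scramble. It was 2.58-fold lower, with a wide interval of 1.45 to 4.78, and it passed the filter on low counts through its scramble reads. The kappa transferase GSTK1 had 855 and 882 reads in shFTO, against 667 and 681 in scramble, or 39.96 and 40.2 CPM against 35.3 and 35.3 CPM. It was 1.14-fold higher (1.06 to 1.22).

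GSTP1, the pi class enzyme, was listed at 0 in both shFTO runs and both scramble runs. A count of 0 allows a level of up to 0.0692 CPM in shFTO and 0.0785 CPM in scramble, from 3 reads over the pooled runs. None of its 50-base words occurs in another gene of the annotation, and its pseudogene GSTP1P1 also had 0 reads. A 0 in these tables need not mean an absent transcript: EEF1G, a translation factor that every cell uses, had 1 and 0 reads in shFTO and 0 and 2 in scramble.

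The microsomal transferases parted. MGST1, an abundant enzyme of the endoplasmic reticulum and outer mitochondrial membrane that also reduces lipid peroxides, had 4074 and 4181 reads in shFTO, against 3658 and 3841 in scramble. At 190.4 and 190.6 CPM in shFTO, against 193.6 and 199.0 CPM in scramble, it gave a ratio of 0.970 (0.940 to 1.001), and its sign turned with the scaling of libraries, to a log2 ratio of 0.12 under plain library size and 0.003 under upper quartile scaling. MGST2 had 1511 and 1563 reads in shFTO, against 3005 and 3009 in scramble, or 70.6 and 71.3 CPM against 159.1 and 155.9 CPM. It was 2.22-fold lower (2.125 to 2.32), and 4.87% of the genes tested had a lower log2 ratio. With plain library size its log2 ratio was -0.98, short of a 2-fold difference. Exons of MAML3 on the other strand cover 7.92% of those of MGST2, and as no strand setting is given in these sources, reads of the 2 genes cannot be told apart there. MGST3, a glutathione peroxidase of the same membrane family outside the list of 10, had 434 and 429 reads in shFTO, against 485 and 440 in scramble, and was 1.22-fold lower (1.11 to 1.34).

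**Figure D2:**
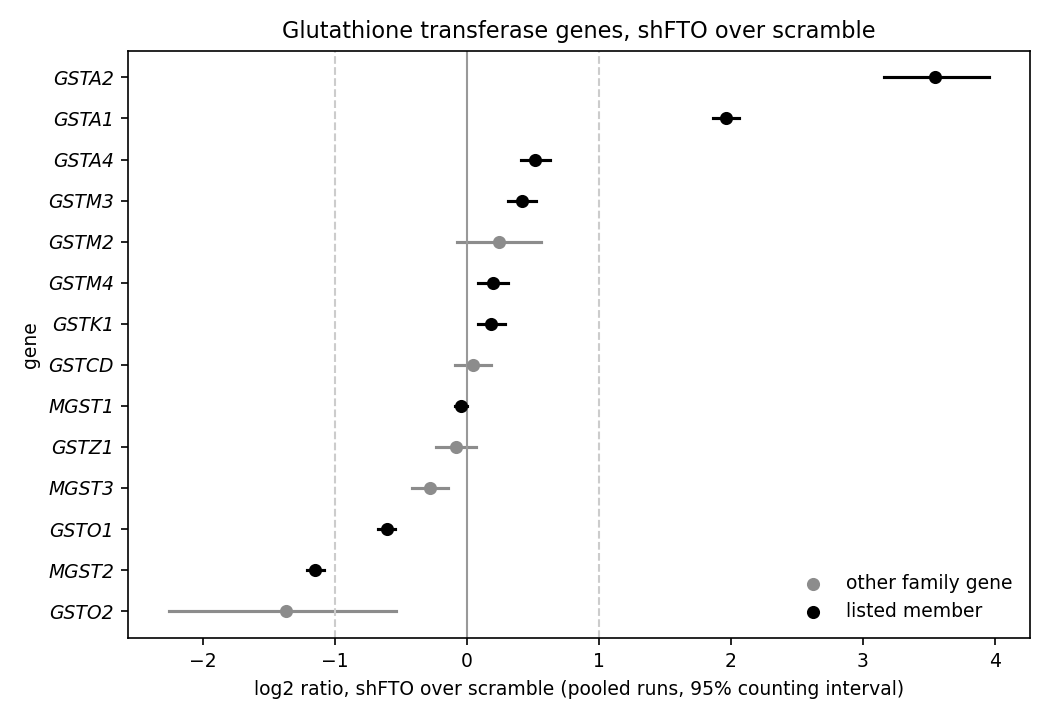
Log2 ratio of pooled CPM, shFTO over scramble, of the 14 family genes that were tested, with 95% counting intervals (bars), listed genes in black, others in grey and 2-fold differences as dashed lines. Only GSTA2 (3.54) and GSTA1 (1.96) lay above the upper line, and only MGST2 (-1.15) and GSTO2 (-1.37) lay below the lower one.

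Beyond the 10, a wider list of 17 transferase and related membrane genes had 15 in the tables and 5 tested. Of these 5, 0 reached a 2-fold higher level and 1, GSTO2, a 2-fold lower one, where 5.18% and 6.19% of all genes tested did. GSTO2 had 18 pooled reads in shFTO and 41 in scramble, and it was among the 5 through its scramble reads. The median log2 ratio of the 5 was -0.08, beside 0.01 over all genes tested, and became 0.08 under plain library size. GSTZ1, which isomerises maleylacetoacetate in tyrosine breakdown, had 351 and 394 reads in shFTO, against 351 and 345 in scramble. Its log2 ratio was -0.08, with an interval that included 0. GSTCD, a protein with a transferase-like domain, had 523 and 456 reads in shFTO, against 405 and 431 in scramble, and a log2 ratio of 0.05. The theta genes GSTT2 and GSTT2B, the prostaglandin D synthase HPGDS, the prostaglandin E synthase PTGES, the leukotriene C4 synthase LTC4S and ALOX5AP, which presents arachidonate for leukotriene synthesis, had 0 to 5 reads per run. GSTT1 and GSTT4 were not analysed here.

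**Figure D3:**
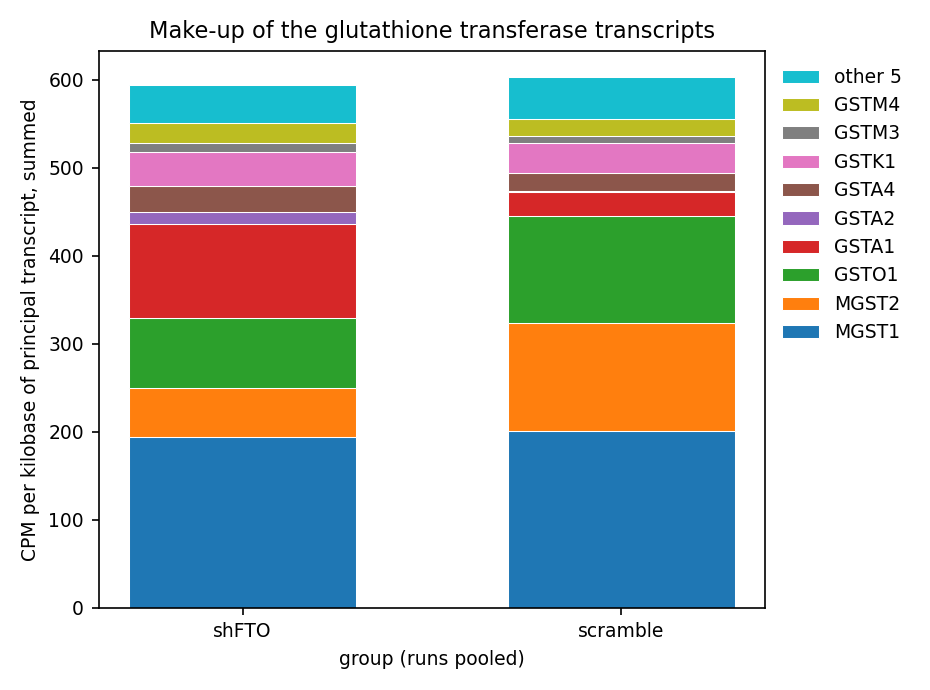
Summed CPM per kilobase of principal transcript of 14 glutathione transferase genes, for shFTO (left) and scramble (right), runs pooled. The columns reach 593.3 and 602.6 CPM per kilobase, and GSTA1 takes 18.0% of the shFTO column and 4.55% of the scramble column, while MGST2 takes 9.36% and 20.4%.

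Summed over the 14 genes, transferase reads came to 684.2 CPM in shFTO and 693.0 CPM in scramble, a ratio of 0.987 under TMM, which plain library size, adding 0.17 to every log2 ratio, turns above 1. Within that sum the make-up differed. Levels are compared between genes per kilobase of principal coding transcript. MGST1 ranked 1 in both groups, with 194.6 CPM per kilobase in shFTO and 200.5 in scramble, 32.8% and 33.3% of the family. GSTA1 ranked 2 in shFTO with 106.8 CPM per kilobase (18.0%) and 5 in scramble with 27.4 (4.55%). GSTO1 ranked 3 in both, with 79.2 CPM per kilobase (13.4%) in shFTO and 120.9 (20.1%) in scramble. MGST2 ranked 4 in shFTO with 55.5 CPM per kilobase (9.36%) and 2 in scramble with 123.2 (20.4%), so that it and GSTO1 lay close together in scramble. GSTA2 ranked 9 of 14 in shFTO with 13.5 CPM per kilobase (2.27%) and 13 in scramble with 1.16 (0.192%), and its neighbour in the shFTO order, GSTZ1, changed places with it between runs. GSTK1 held 6.47% in shFTO and 5.61% in scramble, GSTA4 5.0% and 3.44%, GSTM4 3.83% and 3.30%, and GSTM3 1.78% and 1.31%. The order depends on the length used. With all annotated exons of a gene in place of 1 transcript, GSTA1 held 40.4% in shFTO and 12.7% in scramble and MGST1 only 9.68% and 12.2%.

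Among tested genes, the alpha genes follow each other on chromosome 6 in the order GSTA2, GSTA1, GSTA4, and the mu genes on chromosome 1 in the order GSTM4, GSTM2, GSTM3. GSTA5 and GSTA3, which were not tested, lie between GSTA1 and GSTA4. Of the 10 nearest tested genes around the alpha cluster, 5 on each side, 2 were at least 2-fold higher in shFTO, the noncoding loci AL109918.1 (2.175-fold) and AL033397.1 (2.27-fold), and 0 were at least 2-fold lower. Their log2 ratios ran from -0.57 to 1.18 with a median of 0.19. One of these neighbours is GCLC, the catalytic subunit of the rate-limiting enzyme of glutathione synthesis, which was 1.14-fold higher (1.10 to 1.19). Around the mu cluster 0 of 10 were at least 2-fold different either way, beside the same 5.18% and 6.19% of all genes tested. Their log2 ratios there ran from -0.62 to 0.98 with a median of 0.20. EPS8L3, next to GSTM3 and within the annotated span of GSTM5, was counted with neither the neighbours nor the transferases and had a log2 ratio of -0.43. The neighbours of both clusters thus included higher and lower genes.

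**Figure D4:**
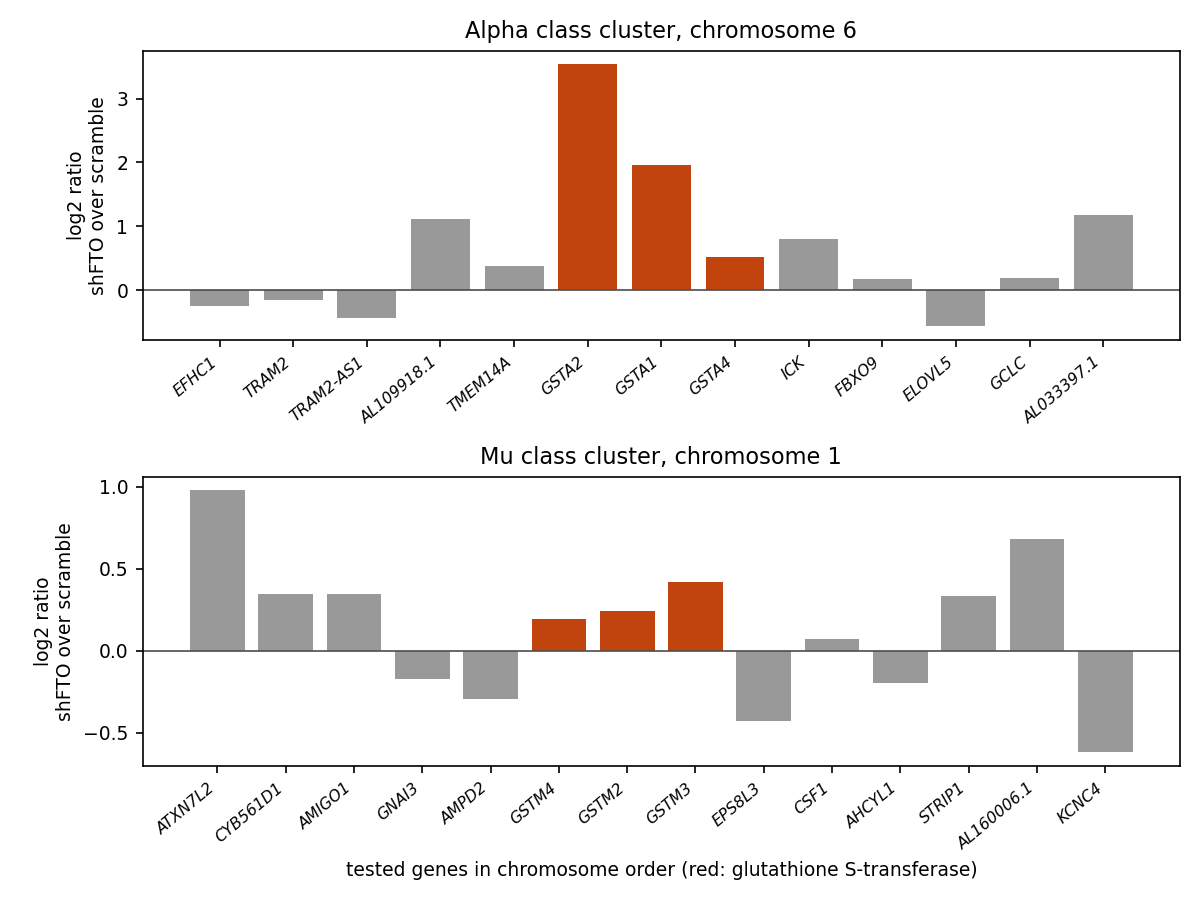
Log2 ratio, shFTO over scramble, of tested genes in chromosome order in and around the alpha cluster on chromosome 6 (top) and the mu cluster on chromosome 1 (bottom), with transferases in red and, in grey, 5 neighbours on each side and EPS8L3 (-0.43), which lies inside the mu cluster. GSTA2 (3.54) and GSTA1 (1.96) rise above neighbours that span -0.57 to 1.18, and the mu genes (0.20 to 0.42) lie within the range of theirs, -0.62 to 0.98.

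Promoter windows of the RefSeq table were searched on both strands for 3 motifs. Windows were found for 9 of the 10 genes, 11 windows in all, MGST2 having none there. The core of the antioxidant response element, TGACNNNGC, occurred in windows of GSTA4, GSTO1, GSTP1 and MGST1, and in 13.3% of 35116 windows of all genes. GSTA4 was 1.43-fold higher and GSTO1 1.53-fold lower, and a link between the match and the direction was not tested. GSTP1 had no reads, and MGST1, at a ratio of 0.970, had the match in only 1 of its windows. The core of the xenobiotic response element, GCGTG, occurred in GSTM3 and GSTM4 and in 36.5% of all windows. The TATA box TATAAA occurred in GSTA1, GSTA2, GSTO1 and MGST1 and in 11.5% of all windows, and in GSTA1 and GSTA2 it lies in the stretch printed above that is the same in both. CpG pairs numbered 36 in the GSTP1 window, 4 in that of GSTA1 and 1 in that of GSTA2, beside a median of 14 over all windows. A match is a run of letters only, and the data hold no measurement of binding or methylation.

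The genes that supply glutathione and NADPH differed in both directions. Of 13 tested, edgeR called 7 higher and 6 lower, where it called 33.2% of all genes tested higher and 33.4% lower, and the median log2 ratio was 0.19, beside 0.01 over all genes tested. GCLM, the modifier subunit of glutamate-cysteine ligase, was 1.39-fold higher (1.29 to 1.49), GSS, glutathione synthetase, 1.27-fold higher (1.21 to 1.33), and SLC3A2, the heavy chain of the cystine transporter, 1.32-fold higher (1.28 to 1.36). SLC7A11, the light chain that carries cystine, was 1.755-fold lower (1.56 to 1.97), with 11.1 and 10.9 CPM in shFTO, against 19.4 and 19.2 CPM in scramble. CTH, which makes cysteine from cystathionine, was 1.45-fold lower (1.22 to 1.74), and PGD, 6-phosphogluconate dehydrogenase, 1.29-fold lower (1.26 to 1.32).

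Among pumps that carry glutathione conjugates and drugs out of the cell, more were higher than lower. Of 9 tested, 1 reached a 2-fold higher level and 1 a 2-fold lower one, 5 were at least 25% higher and 1 at least 20% lower, and edgeR called 7 higher and 1 lower. Over all genes tested, 22.8% were at least 25% higher, 24.0% at least 20% lower, and edgeR called 33.2% higher and 33.4% lower. The median log2 ratio of the pumps was 0.36. ABCC3, a pump of the basolateral membrane, had 126.2 and 128.3 CPM in shFTO, against 47.2 and 47.5 CPM in scramble, and was 2.69-fold higher (2.55 to 2.84). ABCC1, a main exporter of glutathione conjugates, was 1.43-fold higher (1.39 to 1.475), and ABCC2, its counterpart at the bile canaliculus, 1.22-fold higher (1.18 to 1.249). ABCC6, better known for ATP release, was 1.985-fold higher (1.87 to 2.11), and ABCB1, P-glycoprotein, a pump of unconjugated drugs, 1.45-fold higher (1.32 to 1.60). ABCG2, a pump of sulfate conjugates and urate, was 2.39-fold lower (2.19 to 2.62), with 15.75 and 16.4 CPM in shFTO, against 36.6 and 40.35 CPM in scramble.

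Enzymes that break glutathione and its conjugates down differed in both directions. Of 15 tested, 1 reached a 2-fold higher level and 3 a 2-fold lower one, where 5.18% and 6.19% of all genes tested did. At least 25% higher levels were found for 3 and at least 20% lower levels for 6, beside 22.8% and 24.0% of all genes tested. edgeR called 5 higher and 6 lower, beside 33.2% and 33.4%. The median log2 ratio of 0.02 ran from -0.11 to 0.12 when 1 scramble run was left out. The 4 named lower genes are those with the lowest ratios of the list. GGT1, which removes glutamate, was 2.03-fold lower (1.90 to 2.16). The peptidases DPEP1 and ANPEP, which remove glycine, were 2.57-fold (2.28 to 2.90) and 1.66-fold lower (1.62 to 1.71). NAT8, which acetylates cysteine conjugates, was 2.79-fold lower (1.86 to 4.26). NAT8 was low in both groups, at 0.654 and 0.957 CPM in shFTO, against 2.01 and 2.49 CPM in scramble. ACY3, which deacetylates mercapturic acids, was 2.04-fold higher (1.675 to 2.49), GGT5, which cleaves leukotriene C4, 1.71-fold higher (1.115 to 2.67), and CHAC2, a cytosolic glutathione-degrading enzyme, 1.32-fold higher (1.11 to 1.56). GGT1 belongs to a family with near-identical copies, so its value is uncertain.

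Among other enzymes that use glutathione, more were lower than higher. Of 18 tested, 0 reached a 2-fold higher level and 3 a 2-fold lower one, 2 were at least 25% higher and 11 at least 20% lower, and edgeR called 3 higher and 14 lower. The shares over all genes tested were 22.8% at least 25% higher and 24.0% at least 20% lower, with 33.2% and 33.4% called by edgeR. The median log2 ratio was -0.34, beside 0.01 over all genes tested. GPX3, the glutathione peroxidase of plasma, had 166.8 and 165.1 CPM in shFTO, against 653.6 and 646.3 CPM in scramble, and was 3.92-fold lower (3.82 to 4.02). GLRX, a glutaredoxin, was 2.44-fold lower (2.27 to 2.63), CLIC1, a chloride channel protein with a fold like that of the omega transferases, 2.40-fold lower (2.35 to 2.45), and GLO1, which clears methylglyoxal, 1.595-fold lower (1.55 to 1.65). The cellular peroxidases GPX1 and GPX2 were 1.39-fold (1.34 to 1.435) and 1.35-fold higher (1.31 to 1.39).

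The known regulators of transferase genes differed in both directions. Of 20 tested, 2 reached a 2-fold higher level and 1 a 2-fold lower one, edgeR called 11 higher and 6 lower, and the median log2 ratio was 0.18. Over all genes tested, 5.18% were at least 2-fold higher and 6.19% lower, and edgeR called 33.2% higher and 33.4% lower, so the lower counts of the regulators lie near the share of all genes. NFE2L2, which encodes NRF2, had 170.9 and 169.0 CPM in shFTO, against 151.5 and 147.5 CPM in scramble, and was 1.14-fold higher (1.10 to 1.18). KEAP1, which targets NRF2 for destruction, was 1.15-fold higher (1.09 to 1.20). Of the small MAF partners, MAFF was 2.28-fold lower (2.09 to 2.50) and MAFK 1.14-fold lower (1.06 to 1.23). MAFG, the third, had a ratio of 0.966 (0.921 to 1.013). The related factor NFE2L1 was 1.52-fold lower (1.49 to 1.55) and AHR, the aryl hydrocarbon receptor, 1.57-fold lower (1.435 to 1.71). NR3C1, the glucocorticoid receptor, had 87.4 and 88.1 CPM in shFTO, against 30.3 and 27.6 CPM in scramble, and was 3.03-fold higher (2.835 to 3.245), and NR1I2, the pregnane X receptor, was 1.61-fold higher (1.44 to 1.80). Of the liver factors, CEBPA was 3.16-fold higher (2.62 to 3.84), CEBPB 1.99-fold lower (1.89 to 2.101), FOXA1 1.43-fold higher (1.365 to 1.49), and HNF4A 1.32-fold lower (1.28 to 1.355).

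Genes known as NRF2 targets, taken without the transferases, were more often higher than lower. Of 18 tested, 5 reached a 2-fold higher level and 0 a 2-fold lower one, 9 were at least 25% higher and 0 at least 20% lower, and edgeR called 15 higher and 2 lower. Of all genes tested, 5.18% were at least 2-fold higher, 22.8% at least 25% higher and 24.0% at least 20% lower, and edgeR called 33.2% higher and 33.4% lower. Their median log2 ratio was 0.42, and 0.59 under plain library size and 0.46 under upper quartile scaling. AKR1C2, AKR1B10 and AKR1C1, aldo-keto reductases, were 4.33-fold (4.22 to 4.44), 2.31-fold (2.20 to 2.42) and 2.23-fold higher (2.19 to 2.275), with the caveat that AKR1C genes are near copies of each other. EPHX1, the microsomal epoxide hydrolase, had 197.8 and 199.9 CPM in shFTO, against 89.1 and 92.7 CPM in scramble, and was 2.19-fold higher (2.103 to 2.28). TXNRD1, thioredoxin reductase, was 1.73-fold higher (1.69 to 1.78), whereas NQO1, a quinone reductase often used as a marker of NRF2, was 1.17-fold higher (1.15 to 1.19).

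**Figure D5:**
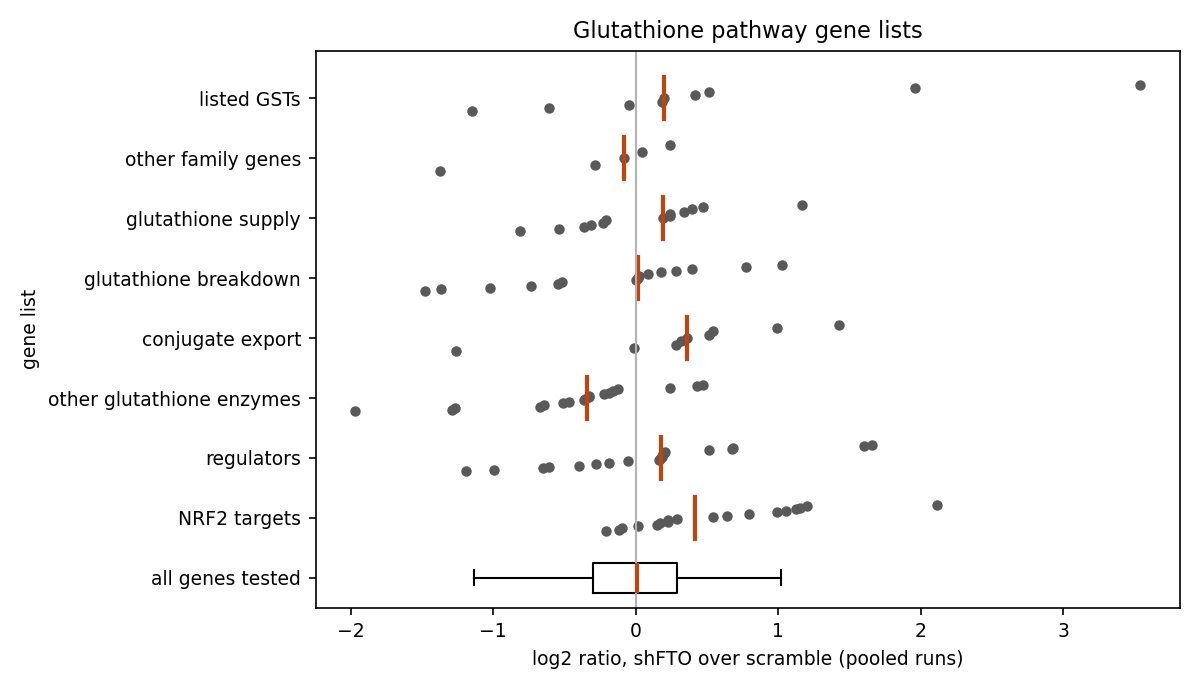
Log2 ratio, shFTO over scramble, of the tested genes of 8 lists (points) with list medians (bars), above a box for all 13767 genes tested (quartiles, whiskers from the 5th to the 95th percentile). Medians run from -0.34 for other glutathione enzymes to 0.42 for NRF2 targets, beside 0.01 for all genes, and GSTA2 at 3.54 is the highest point.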

How the data were processed

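Total RNA of Hep-G2 cells was sequenced, giving 4 tables, 2 per group, with groups and replicate numbers taken from the sample titles. The authors deposited whole-number read counts for each Ensembl identifier, not normalized. The build hg19 and the tools HTSeq 0.6.0 and TopHat2 2.1.1 are named, per the submitters' processing notes. The read length, strand setting, RNA selection and annotation release are not stated there or in the labels. Reads of near-identical or overlapping genes can therefore be split, lost or assigned to the wrong partner.

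Symbols came from GENCODE v29 by Ensembl identifier (51226 of 62893 matched, and 155 of 157 list genes were matched to an identifier in the tables). That annotation is of GRCh38 and was used only for names, lengths, gene order and shared sequence. Promoter windows came from RefSeq on GRCh38.p14.

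Within each group, run 1 and run 2 were set against each other in a chi-square test over genes with at least 20 reads, and then pooled as 1 sample. Each fold is a ratio of pooled, TMM-scaled CPM with exact 95% Clopper-Pearson intervals. They have no p-value, and intervals and floors cover counting error only, as reads are not independent molecules. Genes tested are the 13767 that passed filterByExpr. The quasi-likelihood test of edgeR 4.0.16 in R 4.3.3 (two-sided, Benjamini-Hochberg adjusted p under 0.05, 2 residual degrees of freedom, common dispersion 9.77e-05) was run over all of them. Levels per kilobase use the principal coding transcript.

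The 10 genes and all gene lists were chosen with earlier results of these data known. Named genes are the 10, FTO, family genes with at least 20 reads, and in each list up to 4 genes each way with the largest ratio that were at least 25% higher or 20% lower with a mean of at least 1 CPM. GCLC, ABCC2, NFE2L2, KEAP1, MAFG, MAFK, HNF4A, NQO1, TXNRD1, EEF1G, the named cell type markers and the cluster neighbours were named outside this rule after their values were seen. Not every gene selected this way is reported here. Alternatives were other scalings, other filters, DESeq2 1.42.0, the replicate number as a block, and leaving out each run.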

Additional observations from a re-analysis of the deposited data

How the results depend on the processing

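Plain library size raised the median log2 ratio of all genes by 0.17. Under it the log2 ratios were 2.13 for GSTA1, 0.69 for GSTA4, 0.58 for GSTM3, 0.36 for GSTM4, 0.35 for GSTK1, 0.12 for MGST1, -0.44 for GSTO1 and -0.98 for MGST2. The list medians became 0.36 for the 10 genes, 0.084 for other family genes, 0.36 for glutathione supply, 0.19 for breakdown, 0.53 for export, -0.17 for other glutathione enzymes, 0.35 for regulators and 0.59 for NRF2 targets. Upper quartile scaling gave 0.003 for MGST1, and medians of 0.24 for the 10 genes, 0.066 for breakdown, -0.29 for other glutathione enzymes, 0.23 for regulators and 0.46 for NRF2 targets. Leaving out each run in turn gave medians of 0.18 to 0.24 for the 10 genes, -0.16 to -0.062 for other family genes, 0.14 to 0.22 for supply, -0.11 to 0.12 for breakdown, 0.29 to 0.49 for export, -0.36 to -0.31 for other glutathione enzymes and 0.15 to 0.17 for regulators. With no filter beyond 1 read in each group, 1891 genes were at least 2-fold higher and 2085 lower, as many more genes with few reads entered. edgeR called 6711 genes higher and 3041 lower under plain library size, which moves every ratio up. The replicate numbers are only labels. A fit with the replicate number as a block called 4606 genes higher and 4610 lower, and DESeq2 called 3256 and 3624. DESeq2 size factors and the filter of at least 20 reads moved no value beyond these limits. Error between cultures was not measured, and GSTP1, GSTO2 and the family genes under 20 reads are limited by depth.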
